A study of Ovis aries with 6 samples.

Results

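The hair follicle genes KRT25, KRT27, K38 and PADI3, coding for 3 keratins and an enzyme, were followed in skin of Aohan fine wool sheep. They were chosen by name, and the array carries 7 probes for them among 15008 probes. KRT25, K38 and PADI3 have 2 probes each and KRT27 has 1, and each probe has 1 spot per array. They are 4 of the 476 genes that could be named on the array. Body side skin, which bears wool, was set against groin skin, which does not, with 3 arrays per area. Full-thickness pieces of both areas came from the same 3 sheep, 1 ram and 2 ewes that share a sire, aged 16 months, reared in pens and sampled under local anaesthesia. The labels do not say which array belongs to which animal. Each array was hybridised with Cy3-labelled RNA, and a probe's value is the brightness of its spot after the scanner software had subtracted the background. Brightness also depends on a probe's own sequence, so values are compared between arrays and never between probes as amounts of transcript.

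A hair follicle builds concentric layers around the growing fibre. KRT25 and KRT27 are type I keratins of the inner root sheath, the sleeve that moulds the fibre and is shed before the fibre leaves the skin. K38 is a type I hair keratin, a filament protein of the fibre itself. PADI3 is a peptidylarginine deiminase that turns arginines into citrullines in trichohyalin and other structural proteins of the sheath and fibre. In the RefSeq gene order of the ARS-UI_Ramb_v3.0 sheep assembly the 3 keratins lie in the same type I keratin cluster. KRT25 and KRT27 have only KRT26 between them, 41 protein-coding genes lie between KRT27 and K38, and K38 stands directly beside V15, a hair keratin also known as KRT31.

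Groin replicate 1 stood apart from the other arrays. On it 92.3% of spots were well above background by the scanner's flag, against 79.6% and 79.9% on the other groin arrays and 74.1% to 76.0% on the body side arrays. The median spot signal was 180 to 193 on the groin arrays and 97.5 to 130 on the body side arrays. All 7 probes were well above background on all 6 arrays, and no spot was saturated. The KRT25 and KRT27 spots were read on every array from the scanner's low-gain scan, which covered 2.69% to 3.16% of spots, while the K38 and PADI3 spots were read at the normal gain. The scanner's own error estimate was 10% of the signal for KRT25 and KRT27 and at most 12.3% for the others.

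KRT25 and KRT27 gave some of the brightest spots on every array from both areas. KRT25 probe A_70_P051041 read 143550, 161919 and 165643 on groin replicates 1 to 3 and 167191, 186048 and 215907 on body side replicates 1 to 3. KRT27 probe A_70_P041836 read 120691, 132009 and 138050 in groin and 159355, 140305 and 179020 in body side skin. For both probes the areas did not overlap on these unscaled signals, with body side skin higher, as for 5.79% of all tested probes. The second KRT25 probe, A_70_P051042, read 76641, 70327 and 70683 in groin and 63900, 74792 and 83155 in body side skin, and its areas overlapped. By rank, the first KRT25 probe held places 12 to 25 in groin and 8 to 14 in body side skin. KRT27 held places 29 to 53 and 14 to 44, and the second KRT25 probe held places 124 to 131 and 139 to 150. No groin array placed any of these 3 probes below place 131.

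**Figure D1:**
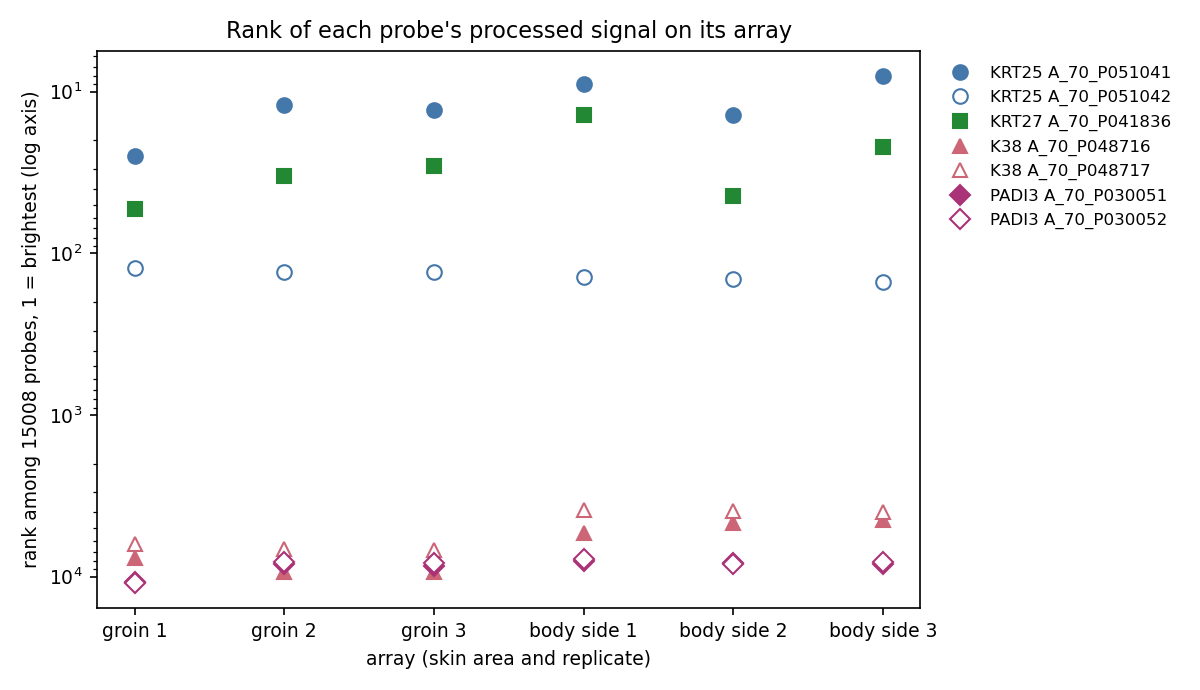
Rank of each probe's processed signal among the 15008 probes of its array, on a log axis with the brightest probe at the top, for the 3 groin and 3 body side arrays. KRT25 and KRT27 stay within the first 150 places on every array, while both K38 probes move from places 6240 to 9322 in groin to places 3844 to 5394 in body side skin.

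After quantile normalization, which gives all arrays the same distribution of values, neither inner root sheath keratin differed between areas beyond the spread of the arrays. The first KRT25 probe had a mean log2 signal of 17.33 ± 0.13 (SD, n = 3) in groin and 17.44 ± 0.05 in body side skin. Its log2 fold change, body side over groin, was 0.11 with a standard error of 0.14, a 95% interval of -0.24 to 0.46 and an adjusted p of 0.60 in limma. The second KRT25 probe gave -0.04 with an interval of -0.37 to 0.28 and an adjusted p of 0.84. KRT27 gave 0.14 with an interval of -0.26 to 0.55 and an adjusted p of 0.56. The intervals leave room for differences of up to 1.46-fold for KRT27 and 1.37-fold for the first KRT25 probe, so equal levels are not shown.

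The result for KRT25 and KRT27 depended on the scaling. When arrays were instead scaled to the 75th percentile of their signals, the log2 fold changes were 0.71 and 0.46 for the KRT25 probes and 0.73 for KRT27, and the areas of all 3 probes stood apart with body side skin higher, as did 22.2% of probes with values on all arrays. The first KRT25 probe then had an adjusted p of 0.048, the second 0.12 and KRT27 0.035. Of all 13929 probes tested, 4.68% passed that adjusted p threshold of 0.05 upward with this scaling. Without groin replicate 1 the adjusted p of these probes with this scaling were 0.070, 0.11 and 0.054 in limma, so none passed it. None of the 3 probes reached the fold of 2 that was also required for a call. Other bright probes shifted in the same way. The 99 brightest tested probes had a median log2 fold change of 0.52 with 75th percentile scaling and -0.05 with quantile normalization, while the median of all tested probes was -0.03 and 0.09. The second KRT25 probe changed sign, since it was negative after quantile normalization and positive with 75th percentile scaling and, at 0.036, with normexp background correction.

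K38 was higher in body side skin by both of its probes. Probe A_70_P048716 read 166, 73.8 and 71.6 on groin replicates 1 to 3 and 401, 518 and 625 on body side replicates 1 to 3. Probe A_70_P048717 read 345, 290 and 273 in groin and 931, 854 and 852 in body side skin. On these unscaled signals the areas did not overlap for either probe, as for 5.79% of all tested probes with body side skin higher. They did not overlap after quantile normalization either, as for 25.9% of probes in this direction. The groin array with the highest K38 signal was replicate 1 in both cases. The lowest body side value exceeded the highest groin value by 1.77 and 1.79 log2 units after quantile normalization.

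The fitted log2 fold changes of K38 were 3.06 for A_70_P048716 (standard error 0.41, 95% interval 2.07 to 4.05, adjusted p 0.018) and 2.14 for A_70_P048717 (standard error 0.17, 95% interval 1.72 to 2.55, adjusted p 0.0052). These are 8.33-fold and 4.40-fold, and both probes were called, at a fold of at least 2 and an adjusted p under 0.05 in limma. By that rule 8.4% of the 13929 tested probes were called, 3.53% higher and 4.87% lower in body side skin. Of the calls over all probes 58.0% were lower in body side skin, and with 75th percentile scaling 75.9% were. K38 was called under both scalings, with log2 fold changes of 2.84 and 1.99 after 75th percentile scaling, where 1.98% of tested probes were called higher. In whole skin, fewer cells of a type and less RNA per cell cannot be told apart.

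The K38 difference was also taken within positions on the slide, where each comparison rests on 2 or 3 arrays. The arrays came from a single scan and lay in 3 columns and 2 rows by their spot positions. Within the rows, of 3 arrays each, the log2 differences were 3.002 and 3.41 for A_70_P048716 and 2.13 and 2.21 for A_70_P048717, and within the column that held both areas, with 1 array of each, they were 3.03 and 2.34. The remaining columns held a single area each. With the slide column as a block neither probe was called, at adjusted p of 0.29 and 0.19 in limma, and with the row as a block A_70_P048716 was not called at 0.062. Leaving out 1 array at a time gave log2 fold changes of 2.87 to 3.53 and 2.06 to 2.30, and the calls were kept in 5 of these 12 fits. A_70_P048716 lost its call without groin replicate 2 or 3 or body side replicate 2 or 3 (adjusted p 0.082 to 0.089), and A_70_P048717 lost it without groin replicate 2 or 3 or body side replicate 2 (adjusted p 0.050 to 0.053). Without groin replicate 1 both were called, at 3.53 and 2.30.

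**Figure D2:**
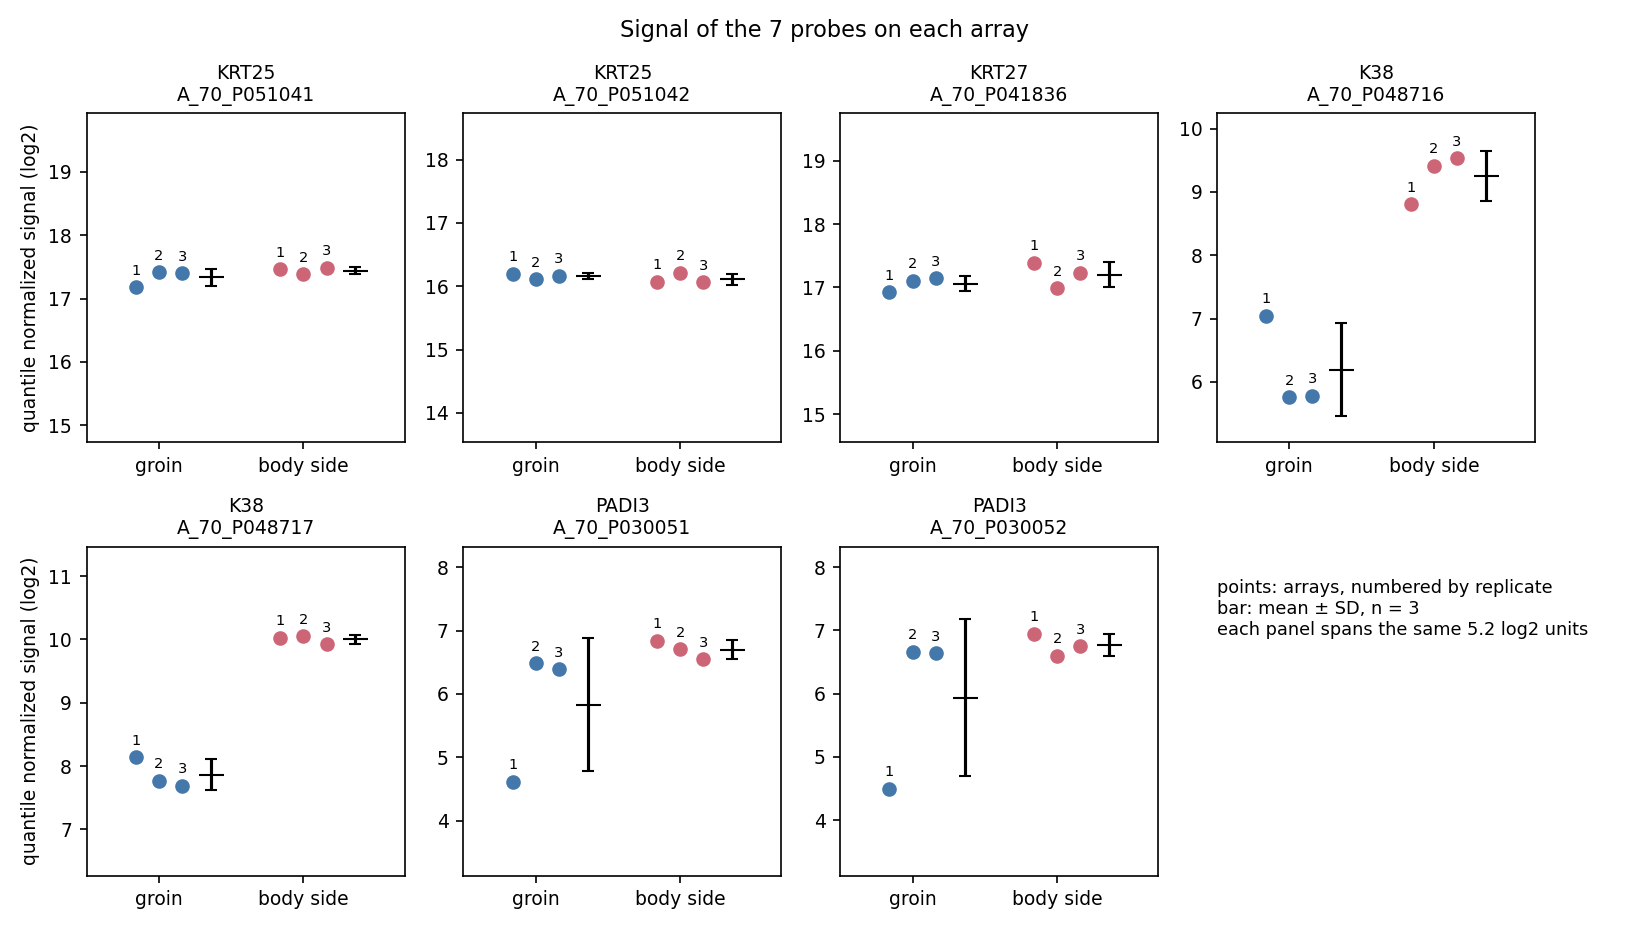
Quantile normalized log2 signal of each probe on every array, with arrays numbered by replicate, the mean and SD of each area as a bar (n = 3) and the same span of log2 units in each panel. K38 separates the areas by 1.77 and 1.79 log2 units, the KRT25 and KRT27 means differ by at most 0.14, and both PADI3 probes are low on groin replicate 1 alone.

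PADI3 did not differ between areas by the test, and groin replicate 1 decided its fold change. Probe A_70_P030051 read 39.4, 121 and 111 on groin replicates 1 to 3 and 103, 67.2 and 68.7 on body side replicates 1 to 3. Probe A_70_P030052 read 37.4, 138 and 133 in groin and 111, 61.9 and 79.1 in body side skin. On these unscaled signals both probes were lowest on groin replicate 1 and highest on groin replicate 2. The fitted log2 fold changes were 0.87 with an interval of -0.37 to 2.114 (adjusted p 0.26) and 0.83 with an interval of -0.62 to 2.28 (adjusted p 0.35). After quantile normalization the areas did not overlap for A_70_P030051, by 0.066 log2 units, as for 25.9% of all probes in this direction, and overlapped for A_70_P030052. Without groin replicate 1 the log2 fold changes were 0.27 and 0.12, and with 75th percentile scaling as well they were -0.11 and -0.26, so the direction turned. Within the slide row that held groin replicate 1 the differences were 1.21 and 1.03, and within the row that did not they were 0.21 and 0.19.

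**Figure D3:**
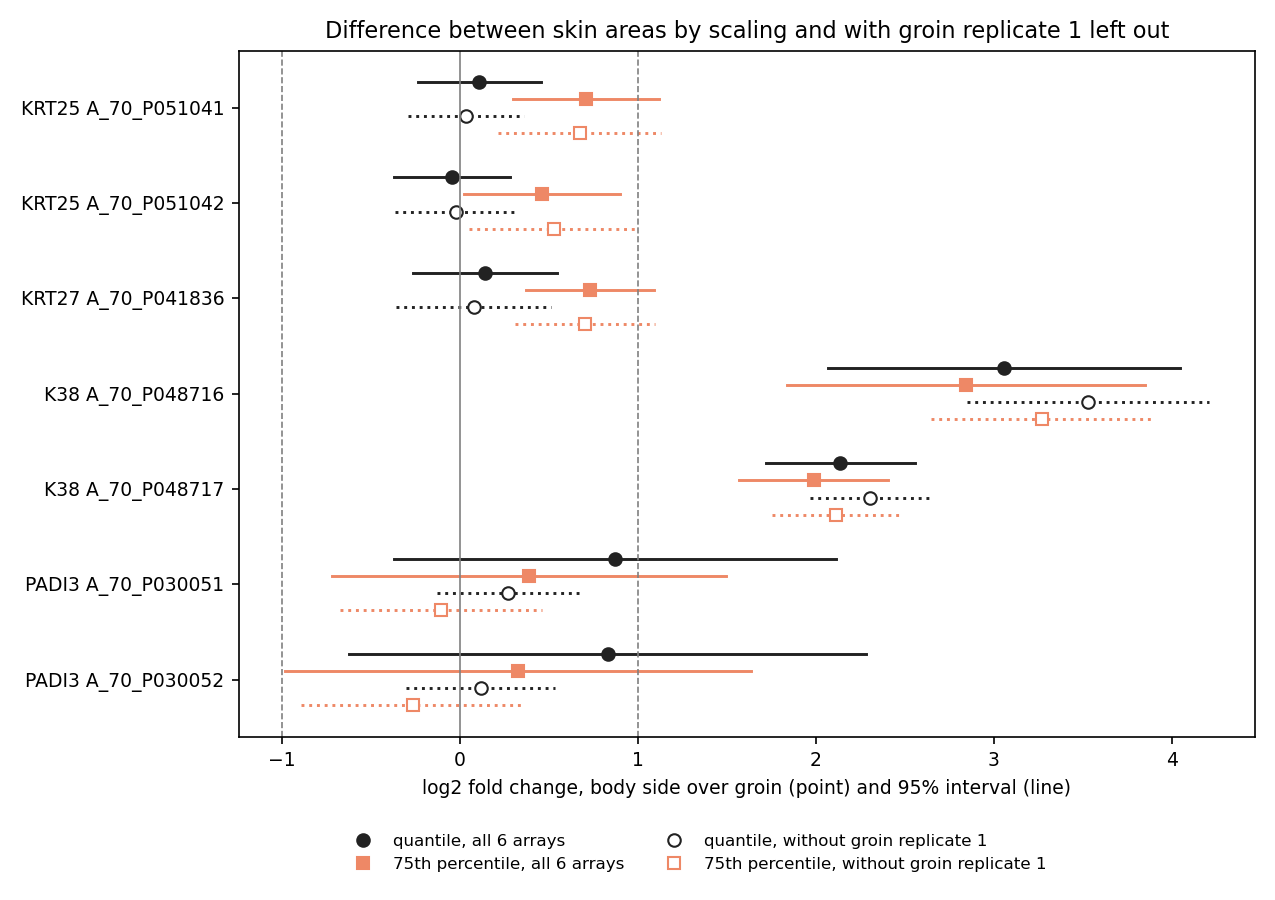
Log2 fold change of each probe, body side over groin, with its 95% interval, after quantile normalization or 75th percentile scaling and with all 6 arrays or without groin replicate 1. The vertical lines mark no difference and a 2-fold difference. K38 lies above 1 in each fit, KRT25 and KRT27 move with the scaling from 0.11, -0.04 and 0.14 to 0.71, 0.46 and 0.73, and PADI3 moves with groin replicate 1 from 0.87 and 0.83 to 0.27 and 0.12.

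The probes of a gene were compared as differences within each array. After quantile normalization the K38 probes differed in log2 fold change by 0.92 (two-sided exact permutation test, p = 0.2), the KRT25 probes by 0.15 (exact p = 0.3) and the PADI3 probes by 0.041 (exact p = 0.8). The KRT25 difference was 0.25 with 75th percentile scaling and 0.23 with the authors' deposited log2 values (exact p = 0.1 in both). With 3 arrays against 3 this test cannot give a p below 0.1, so it cannot reach 0.05. The gap between the K38 probes was -2.01 to -1.10 log2 units in groin and -1.22 to -0.39 in body side skin, and groin replicate 1 had the smallest gap of the groin arrays. The same test was run on the 6 pairs of genes, using the mean of a gene's probes. The log2 fold change of K38 exceeded that of KRT25 by 2.56 and that of KRT27 by 2.45 after quantile normalization, and in both the areas did not overlap (exact p = 0.1, adjusted 0.2 over the 6 pairs). With 75th percentile scaling these differences were smaller, at 1.83 and 1.69 (exact p = 0.1, adjusted 0.3). The following values are after quantile normalization unless another scaling is named. K38 exceeded PADI3 by 1.75, with overlapping areas (exact p = 0.2, adjusted 0.24). KRT25 and KRT27 differed by 0.11 (exact p = 0.5). PADI3 exceeded KRT25 by 0.82 and KRT27 by 0.71 after quantile normalization (exact p = 0.1 and 0.2, adjusted 0.2 and 0.24), and fell below them by 0.23 and 0.37 with 75th percentile scaling. Without groin replicate 1 PADI3 exceeded KRT25 by 0.19 and KRT27 by 0.12 after quantile normalization, and K38 exceeded PADI3 by 2.72.

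Other hair genes on the array were taken from lists. Of the hair shaft keratins, V15, KRT35 and K38 had probes, and 2 of the 6 probes were called higher, both of K38, and none lower, against 3.53% of all tested probes called higher. The median log2 fold change of these 6 probes, the 2 of K38 included, was 1.65 with outlier spots dropped, against 0.09 over all tested probes. It was 1.39 with outlier spots kept, against 0.05. These medians therefore partly restate the K38 result. KRT35, a keratin laid down early in the forming shaft, and V15 probe A_70_P030296 lost arrays to spots that the scanner marked as outliers, so the values of V15 and KRT35 that follow are with those spots kept. V15 probe A_70_P001727 then had log2 signals of 14.04, 15.41 and 15.39 in groin and 16.26, 15.48 and 15.54 in body side skin, a difference of 0.81 (standard error 0.44, adjusted p 0.23 in limma). KRT35 probe A_70_P049452 had 13.68, 15.18 and 15.28 in groin and 16.03, 16.21 and 16.24 in body side skin, a difference of 1.45 (standard error 0.44, adjusted p 0.073). The areas did not overlap for either, by only 0.07 log2 units for V15, where 25.9% of all probes were separate in this direction, and neither was called. The keratin associated proteins, which cross-link the keratin filaments of the fibre, had KRTAP4.3 and KRTAP5.4, and 0 of 2 probes were called, with a median log2 fold change of 0.75. The inner root sheath list held only KRT25 and KRT27, with 0 of 3 probes called and a median of 0.11. The citrullination list held only PADI3, with 0 of 2 called and a median of 0.85. The list of follicle transcription factors and signals had BMP4 and NOG, with 0 of 4 called and a median of 1.03.

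PADI3 and the fibre genes other than K38 were low together on groin replicate 1. The difference of that array from the mean of groin replicates 2 and 3, after quantile normalization with outlier spots kept, was -1.81 and -2.14 log2 units for the PADI3 probes. It was -1.36 and -2.14 for V15, -1.52 and -1.55 for KRT35, -1.82 for KRTAP4.3 and -1.59 for KRTAP5.4. All 6 of these V15, KRT35 and keratin associated protein probes were lower on groin replicate 1 than on both other groin arrays. The BMP4 and NOG probes were also lowest on this array, so the drop was not particular to PADI3 and the fibre genes. K38 went the other way, by 1.28 and 0.42. KRT25 differed by -0.23 and 0.06 and KRT27 by -0.21, and the median over all tested probes was 0.0031. With 75th percentile scaling the PADI3 differences were -1.48 and -1.78 and those of K38 were 1.27 and 0.37. No test is attached, since this array was picked for standing apart.

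**Figure D4:**
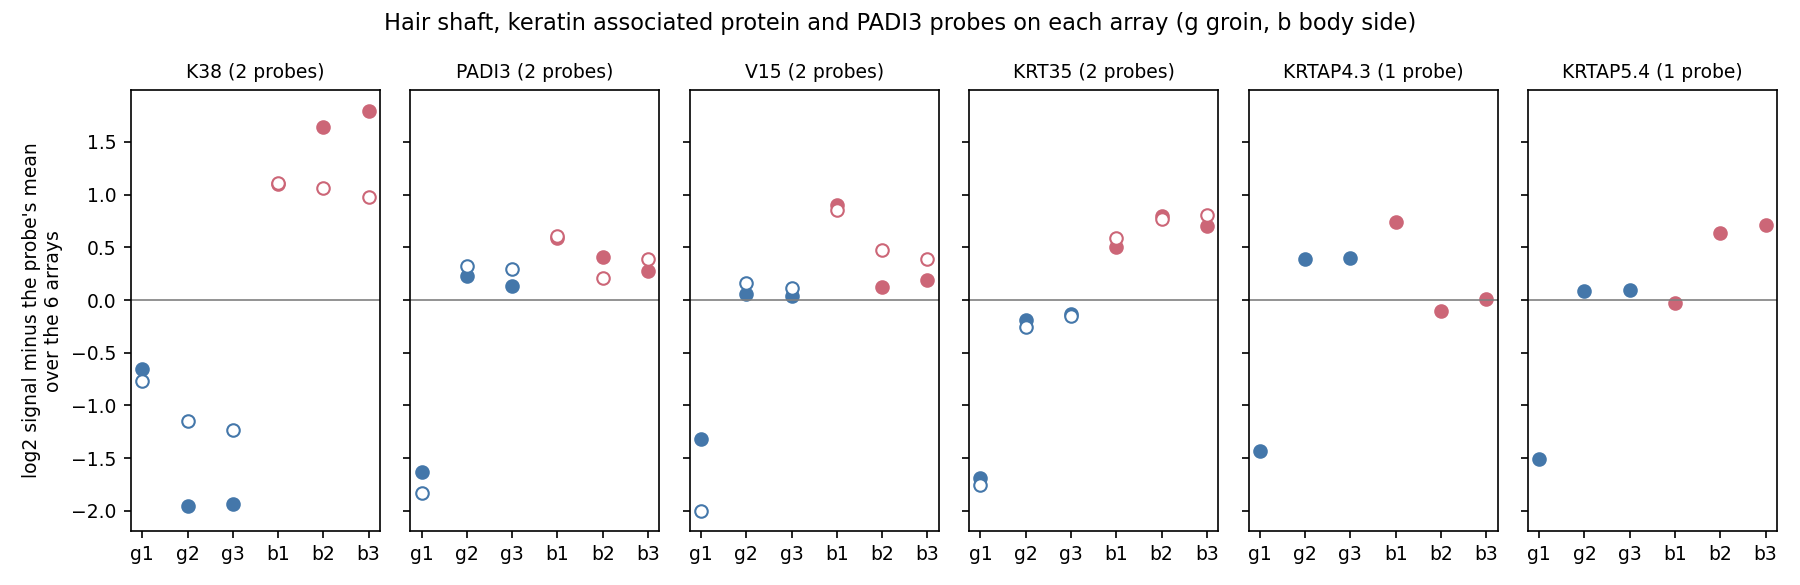
Log2 signal of each probe minus its mean over the 6 arrays, with outlier spots kept, for K38, PADI3 and the other fibre genes on groin (g) and body side (b) arrays 1 to 3, filled and open points marking a gene's first and second probe. PADI3, V15, KRT35, KRTAP4.3 and KRTAP5.4 are lowest on groin replicate 1, while K38 is higher there than on the other groin arrays.

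The probes whose profile over the 6 arrays lay nearest to each gene were found among 502 or 503 probes of other named genes that the scanner placed well above background on every array. The measure was the root mean square difference of log2 values after each probe's mean was removed. For K38 the nearest were HBB, a beta globin, at 0.39 and TYR, the tyrosinase of pigment cells, at 0.54. For PADI3 they were KRTAP4.3 at 0.25 and V15 at 0.26. For KRT27 they were the cell cycle kinase CDK4 at 0.068 and ZFP36, a protein that binds messenger RNA, at 0.083. For KRT25 they were the small GTPase RAN at 0.040 and the cytokine FLT3LG at 0.042. The profile of KRT25 was itself nearly flat, with a root mean square of 0.035, so its neighbours were flat probes.

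Markers of other skin cells also differed between areas, and their part in the results for K38 and PADI3 was not tested. The sums given for each list are of quantile normalized signals, and they follow the brightest probe of a list. Over all tested probes 3.53% were called higher and 4.87% lower. Of the melanocyte markers 1 of 2 probes was called higher, TYR probe A_70_P008181 by 2.01 log2 units, and the summed signal of the list was 60.6 to 82.4 in groin and 238 to 310 in body side skin. The other TYR probe, A_70_P008182, went the other way by -0.70 without a call (adjusted p 0.054 in limma). It was dim, with no body side array well above background. HBB, the single probe of the endothelium and blood list, was called higher by 2.34 (2.06 without a call with 75th percentile scaling, adjusted p 0.063 in limma), with signals of 27.8 to 92.7 in groin and 136 to 285 in body side skin. Of the sweat gland and simple epithelium probes 1 of 5 was called higher, for the water channel AQP5 by 1.23 (0.84, under the fold of 2, with 75th percentile scaling). Only 2 of the 5 log2 fold changes were above 0, and their median was -0.45. The summed signal was 53383 to 57678 in groin and 32679 to 44452 in body side skin. The brightest of these probes, those of ATP1B1, gave -0.54 and -0.61 without a call. Of the dermal papilla probes 6 of 10 were called lower, being both FGF7 probes, 3 of 4 LEPR probes and 1 of 4 FGF10 probes, with a summed signal of 529 to 570 in groin and 216 to 262 in body side skin. The called LEPR and FGF10 probes were dim on all body side arrays. They entered the test only through groin arrays, where they were high, so only the FGF7 calls were free of that filter. The called FGF10 probe was well above background on 1 groin array and was not tested without groin replicate 1. Its call was lost with 75th percentile scaling (adjusted p 0.10 in limma). The FGF10 probe that was measured on all arrays, A_70_P012572, gave -0.08 (adjusted p 0.78 in limma). Of the sebaceous gland and fat markers 2 of 6 were called lower, for SCD and LPL. Their called probes were dim in all body side arrays and likewise entered the test only through groin arrays. The sum of this list was 36782 to 57825 against 17957 to 37569. Of the muscle markers 1 of 7 was called lower, CNN1 with a log2 fold change of -1.18 (-0.79 without a call with 75th percentile scaling, adjusted p 0.13 in limma). The log2 fold changes of 5 of the 7 muscle probes were above 0, with a median of 0.65 over the list. CNN1 was the brightest muscle probe, and the sum was 12505 to 15172 against 4593 to 7805. None of 8 immune probes, 2 dermal fibroblast probes for DCN and 1 epidermal probe for SFN was called. Their summed signals were 2838 to 3010 against 2963 to 3484, 200404 to 232827 against 159096 to 181739, and 118871 to 134659 against 131296 to 140843. SFN, an epidermal marker, and DCN, a dermal matrix gene, were bright in both areas, and no nerve marker had a named probe.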

How the data were processed

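The authors scanned 1-colour Agilent sheep arrays and deposited, for each spot, the processed signal intensity from Agilent Feature Extraction 10.5.1.1, which is background-subtracted and not normalized. They also deposited a table of log2 values. It correlated with the values computed here at 0.998 to 0.999 per array, its column medians were all 7.58, and its scale and direction matched, so it was used as an alternative. The study's methods name quantile normalization, and the number of arrays limits the precision.

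Control spots and outlier-flagged spots were dropped, spots of a probe were averaged as log2 values, and quantile normalization followed. A probe entered the test if at least 1 array had it well above background. The test was limma 3.58.1 in R 4.3.3 without a block and with Benjamini-Hochberg adjustment over all of them. The fit was tested on simulated data. Normexp used the median spot signal and the local background median with an offset of 50. Alternatives were 75th percentile scaling, normexp, a floor of 5, outlier spots kept, the deposited table, other filters on dim probes, array weights, blocks, no fold threshold and leaving out each array. 75th percentile scaling without groin replicate 1, and gene pairs without that array, were added after seeing the data. The paper states a slide per sample, which differs from the spot positions, and this was not resolved.

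Symbols came from a RefSeq table for ARS-UI_Ramb_v3.0, which named 734 probes of 476 genes. Named from the lists were all called genes and up to 3 others per list by signal, up to 3 markers per cell type list, and the 2 nearest profiles per gene. The members and the lists were chosen with earlier results of these data known. P-values measure the spread between 3 arrays per area.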

Additional observations from a re-analysis of the deposited data

How the results depend on the processing

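The count of called probes over the whole array, 1170 after quantile normalization, was 444 with normexp, 3338 with array weights, 2071 without the fold threshold, 52 with the slide row as a block and 0 with the slide column as a block, where 1874 probes had an unadjusted p under 0.05 in limma. Leaving out 1 array at a time gave 11 to 2939 calls, with 13 and 11 without groin replicates 2 and 3, 2939 without body side replicate 1, and 44 and 64 without body side replicates 2 and 3.

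Whether the replicate numbers in the titles pair the arrays was not settled, since deviations of same-numbered arrays correlated at 0.13, 0.073 and 0.057 and those of other pairs of a groin and a body side array at -0.12 to 0.13. A block on that number left 8 called probes, and neither K38 probe was called, with adjusted p of 0.056 and 0.053 at log2 fold changes of 3.06 and 2.14, which a block on equal groups cannot move. With the slide row as a block A_70_P048716 gave 3.21, and with the slide column as a block the K38 probes gave 3.03 and 2.34, without a call as given above.

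The second KRT25 probe turned positive with 75th percentile scaling (0.46), normexp (0.036) and 75th percentile scaling without groin replicate 1 (0.53). PADI3 turned negative in the last of these (-0.11 and -0.26). In the deposited table the second KRT25 probe had 16.25, 16.19 and 16.19 in groin and 16.14, 16.09 and 16.045 in body side skin. The areas were thus apart with body side skin lower, by a log2 fold change of -0.12 (adjusted p 0.45 in limma). The difference of KRT25 minus PADI3 turned to 0.23 and that of KRT27 minus PADI3 to 0.37 with 75th percentile scaling. The mean percentile of the second KRT25 probe among all probes was 99.1 in the scanner files and 99.03 in the deposited table. The cause of these changes was not tested.

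Leaving out 1 array at a time gave log2 fold changes of 0.035 to 0.15 and -0.07 to -0.02 for KRT25, 0.048 to 0.24 for KRT27, 2.87 to 3.53 and 2.06 to 2.30 for K38, and 0.27 to 1.18 and 0.12 to 1.18 for PADI3. PADI3 lies at the dim end, at 37.4 to 138 units of signal, where the scanner's error was largest among these probes.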

Other observations

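BMP4, a growth factor of the hair bulb, and NOG, which binds and blocks it, had 2 probes each and none was called. BMP4 probe A_70_P030206 differed by 1.11 log2 units, body side over groin, with an adjusted p of 0.12 in limma, and probe A_70_P030207 by 1.22 with an adjusted p of 0.11. With outlier spots kept, the log2 signals of A_70_P030206 were 9.06, 9.91 and 9.94 in groin and 9.91, 10.998 and 11.23 in body side skin, so that body side replicate 1 lay among the groin arrays. Like PADI3, both BMP4 and both NOG probes were lowest on groin replicate 1. NOG probe A_70_P068156 had log2 signals of 1.90, 4.11 and 4.12 on groin replicates 1 to 3, with outlier spots kept. The NOG probes were dim, and A_70_P068157 was well above background on 1 array of each area.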
